A study of Mus musculus with 6 samples.

Results

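The AP-1 family transcription factors followed here were 10 genes, Fos, Fosb, Fosl1, Fosl2, Jun, Junb, Jund, Atf3, Maff and Batf3, taken by their symbols from the count tables of mouse lung and lung organoid cells. All 10 symbols were present once in each of the 6 tables, among 30828 to 32285 gene rows a table. Every member was followed on its own, and the 10 were chosen as a gene family with earlier results of these data known. The libraries were droplet single-cell RNA-seq, in which every captured transcript is counted once by its unique molecular identifier (UMI).

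AP-1 is a DNA-binding dimer of basic leucine zipper proteins. A Fos protein does not pair with itself and commonly pairs with a Jun protein, whereas Jun proteins can also pair with each other. Proteins of the Atf, Maf and Batf groups can also be partners in such dimers, and the choice of partner sets which sites are bound. Most members are immediate-early genes, transcribed within minutes of a growth factor, of stress or of tissue dissociation without any new protein being made, and their transcripts are short-lived. In lung fibroblasts (FBs) AP-1 dimers are known to act on genes of matrix turnover, and the same genes are known to be induced while a lung is digested into single cells.

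All mice of the lung libraries were male Pdgfra-GFP animals of 10 to 14 weeks, in which GFP marks cells that transcribe Pdgfra, the receptor for platelet-derived growth factor A. The single-dose pair received 50 ul of PBS or bleomycin, a DNA-breaking drug that scars the lung, into the oropharynx and was harvested on day 14; the bleomycin dose is given as 2 U/kg in the protocol and 4 U/kg in the treatment field of the labels. The repetitive pair received PBS or bleomycin in 3 weekly doses (1, 1 and 0.5 U/kg) and was harvested 14 days after the last one. Each lung library held GFP+ cells sorted from enzyme-digested lungs of 3 mice, pooled. The organoid pair held Tomato+ alveolar type 2 epithelial cells (AEC2), labelled in their donor mice by SpcCreER, which is active in cells that transcribe surfactant protein C once tamoxifen is given (2 injections of 1 mg/kg), and grown for 2 weeks with GFP+ FBs coming from PBS mice (normal) or from mice given 2 U/kg bleomycin (fibrogenic). The FB donor mice, 3 pooled for each organoid library, had received 1 dose and were harvested on day 14. The labels give the mixture as AEC2 and FBs at 10 to 1, while the study's methods describe FBs in excess of AEC2, so that the starting proportion is uncertain. Organoids were taken apart with Accutase and trypsin rather than with the lung enzymes, so that organoid and lung levels also differ in dissociation.

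Each condition was 1 library with no replicate, so that no test between conditions could be made and every interval below covers counting error alone, not the spread between mice or preparations. Intervals of levels and ratios treat UMIs as independent, so they also leave out the spread between barcodes. Libraries held 7201081 to 238618743 UMIs. FB barcodes were those that carried FB markers and no comparable set of another class, and numbered 917 (single PBS), 844 (single bleomycin), 5437 (repetitive PBS), 8019 (repetitive bleomycin), 2160 (normal organoid) and 4033 (fibrogenic organoid). Their median depth was 6818, 11442, 10513, 3690, 47904 and 9661 UMIs in that order. Pdgfra stood at 520 and 299 CPM in the single-dose FBs (UMIs of a gene summed over the barcodes of a group and scaled to the same total in every group, the unit of all levels below), at 591 and 372 CPM in the repetitive FBs and at 77.4 and 73.2 CPM in the organoid FBs, PBS or normal first. The single-dose tables held fewer gene rows than the others, so that levels set across the experiments also differ in how the tables were made. Between 3.997% and 23.7% of barcodes fell in no class, the most in the fibrogenic organoids, and 0 to 30 barcode sequences were shared by any pair of libraries.

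The promoters of 5 members are shown first, since AP-1 genes are known to be switched on through sites for the same families of factor that they encode. In the mouse RefSeq assembly GRCm38.p6, 9 of the 10 members had a window of 250 bases before to 50 bases after an annotated start (11 windows, of which 3 were for Maff). Capitals mark the letters TGACGT, TGACATCA or TGACGTCA on either strand, and Junb, which has none, is given for contrast; these letters belong to the cyclic-AMP response element family that Jun, Atf and Creb proteins can bind. The last 120 bases before the start of Fos lie at chr12:85473770-85473889 (plus strand), those of Jun at chr4:95052223-95052342 (minus strand) and those of Junb at chr8:84978749-84978868 (minus strand). The stretches of Atf3, chr1:191183334-191183363 on the minus strand, and Maff, chr15:79347480-79347509 on the plus strand, are 30 bases each and lie at an internal start within the gene.
Fos: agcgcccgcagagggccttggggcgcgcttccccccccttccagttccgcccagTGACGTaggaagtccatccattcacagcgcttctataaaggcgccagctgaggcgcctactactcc
Jun: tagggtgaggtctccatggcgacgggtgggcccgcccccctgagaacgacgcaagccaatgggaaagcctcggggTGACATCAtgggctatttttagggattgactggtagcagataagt
Junb: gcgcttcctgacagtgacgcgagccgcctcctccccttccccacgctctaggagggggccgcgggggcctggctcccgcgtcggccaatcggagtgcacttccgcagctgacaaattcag
Atf3: cctggaagctattaatagcattACGTCAgc
Maff: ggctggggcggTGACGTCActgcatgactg
The classical AP-1 site TGANTCA was found in 7.81% of 32851 such windows of all genes and in 0 of the 11 member windows. TGACGTCA was in 1.79% of all windows and in 1 member window (Maff), TGACATCA in 3.62% and in 2 (Jun and a Maff window), and TGACGT, which TGACGTCA contains, in 7.51% and in 3 (Fos, Atf3 and Maff). These letters were chosen after the windows had been read, and a match describes the sequence only.

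The AP-1 genes took a smaller share of FB RNA after bleomycin than after PBS in both models. The 10 members together made up 0.887% of all UMIs of the single PBS FBs and 0.319% of those of the single bleomycin FBs. The shares were 1.12% and 0.6002% in the repetitive pair. In organoids they were 0.144% with normal and 0.134% with fibrogenic FBs. Fos, Jun, Junb and Jund carried most of this sum in the lung, Batf3 and Fosl1 almost none of it. One end of each transcript is counted in these libraries, so that CPM do not grow with transcript length.

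**Figure D1:**
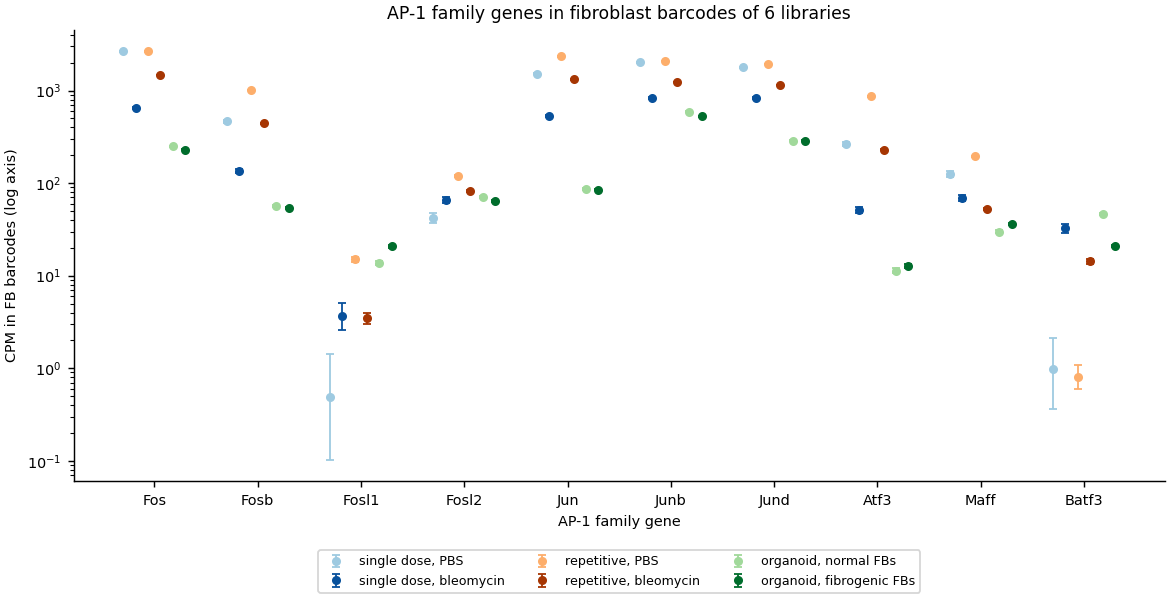
Level of each AP-1 member in the FB barcodes of the 6 libraries, in CPM on a log axis, with exact 95% Poisson intervals that cover counting error alone. Fos lay near 2650 CPM in both PBS lungs and at 250 and 229 CPM in the organoids, while Batf3 lay under 1 CPM in both PBS lungs and between 14.3 and 46.1 CPM in the other 4 libraries.

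Among the Fos proteins, Fos itself, the founding immediate-early member, counted 2650 CPM (95% interval 2610 to 2691) in single PBS FBs and 655 CPM (639 to 671) in single bleomycin FBs. In the repetitive pair Fos stood at 2642 CPM (2629 to 2655) and 1470 CPM (1460 to 1479). Both PBS lungs were thus at the same level within counting error and both bleomycin lungs were below them without overlap, by 4.05-fold and 1.80-fold. Fosb, which is also known to give a short splice form without an activating region, gave 466 and 134 CPM in the single-dose pair and 1013 and 444 CPM in the repetitive pair. Fosb was lower after bleomycin in both models by 3.45-fold and 2.28-fold, although the PBS lungs themselves differed.

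Fosl1 and Fosl2 encode Fra-1 and Fra-2, Fos proteins without the strong activating region of Fos. Fosl2 counted 41.6 CPM (36.6 to 47.0) in single PBS and 65.7 CPM (60.8 to 70.8) in single bleomycin FBs, but 119 CPM (116 to 122) in repetitive PBS and 81.9 CPM (79.6 to 84.2) in repetitive bleomycin FBs. The intervals did not overlap within either pair, and the direction was opposite, with log2 ratios of bleomycin to PBS of 0.65 and −0.53. Fosl1 was rare, with 3 UMIs over the single PBS FBs (0.489 CPM) and 38 over the single bleomycin FBs (3.65 CPM). In the repetitive FBs Fosl1 counted 893 UMIs (15.03 CPM) and 211 UMIs (3.46 CPM). Fosl1 likewise moved in opposite directions, and the repetitive PBS lung was the high library of the 4.

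The Jun genes, whose products pair with Fos proteins and with each other, were all lower after bleomycin. Jun counted 1522 CPM (1491 to 1553) and 527 CPM (513 to 541) in the single-dose pair. In the repetitive pair it counted 2334 CPM (2321 to 2346) and 1324 CPM (1315 to 1333). The differences were 2.89-fold and a log2 ratio of −0.82, the PBS library being higher each time. Junb, a weaker activator that restrains Jun in many settings, stood at 2010 and 829 CPM, then at 2084 and 1239 CPM. Jund, the Jun gene least dependent on stimulation, stood at 1784 and 824 CPM, then at 1925 and 1144 CPM. Junb and Jund thus had nearly the same level in both PBS lungs, and both were lower in the bleomycin libraries by 2.42-fold and 2.16-fold after a single dose and by a log2 ratio of −0.75 each after repetitive doses.

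Of the partners outside the Fos and Jun groups, Atf3, a stress-induced gene whose homodimer represses transcription, showed the widest spread in lung FBs among the members above 50 CPM. It counted 265 CPM (252 to 278) in single PBS and 51.3 CPM (47.0 to 55.8) in single bleomycin FBs. It counted 867 CPM (859 to 874) in repetitive PBS and 229 CPM (225 to 233) in repetitive bleomycin FBs. The intervals of all 4 lung libraries were apart, the PBS lungs included, and each bleomycin library was below its PBS partner, by 5.09-fold and 3.77-fold. Maff, a small Maf protein without an activating region of its own, stood at 126 and 69.6 CPM and at 194 and 52.4 CPM. Maff was 1.80-fold lower after the single dose and 3.66-fold lower after the repetitive doses.

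Batf3, which lacks an activating region, binds DNA with Jun proteins and is best known from the development of one group of dendritic cells, moved the other way. It gave 6 UMIs (0.978 CPM) in single PBS and 338 UMIs (32.5 CPM, 29.1 to 36.1) in single bleomycin FBs. It gave 48 UMIs (0.808 CPM) in repetitive PBS and 870 UMIs (14.3 CPM, 13.3 to 15.2) in repetitive bleomycin FBs. On the scale of CPM plus 1, Batf3 was 16.9-fold and 8.44-fold higher after bleomycin, and neither pair of intervals overlapped. Because Batf3 marks dendritic cells, the immune content of the FB barcodes was counted. The 8 immune markers summed to 43.3 and 75.9 CPM in the single-dose FBs and to 9.07 and 62.8 CPM in the repetitive FBs, while 4 dendritic cell genes (Xcr1, Clec9a, Flt3 and Wdfy4) summed to 1.30 and 0.576 CPM and to 0.101 and 1.89 CPM. Each of the 8 immune markers had at least 1 UMI in the FBs of all 4 lung libraries, and 0 to 2 of the 4 dendritic cell genes were at 0. In FB barcodes with no UMI of any immune marker the log2 ratios of Batf3 were 4.52 and 3.08, against 4.08 and 3.08 in all FB barcodes. Such barcodes numbered 788 of 917 and 469 of 844 in the single-dose pair, PBS first. They numbered 5157 of 5437 and 6591 of 8019 in the repetitive pair.

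Read against all genes, 6 of the 10 members were at least 2-fold lower and 2 at least 2-fold higher in the single bleomycin FBs, on the log2 scale of CPM plus 1. Of the 12080 genes with 20 or more UMIs over both libraries, 3.64% were that much lower and 9.01% that much higher. In the repetitive FBs 4 members were at least 2-fold lower and 1 was at least 2-fold higher, where 1.63% and 6.03% of 17322 genes were so. The median log2 ratio of all genes was 0.085 and 0.097. The lower members common to both models were Fosb and Atf3, and Batf3 was the higher one common to both. The other higher member of the single-dose pair, Fosl1 (log2 ratio 1.64, interval 1.24 to 5.24), rests on 3 UMIs in PBS. In FB barcodes with no immune marker 6 members were at least 2-fold lower and 1 higher after the single dose, with 4.06% and 8.11% of all genes, and 4 lower and 1 higher after the repetitive doses, with 1.65% and 5.78% of all genes.

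**Figure D2:**
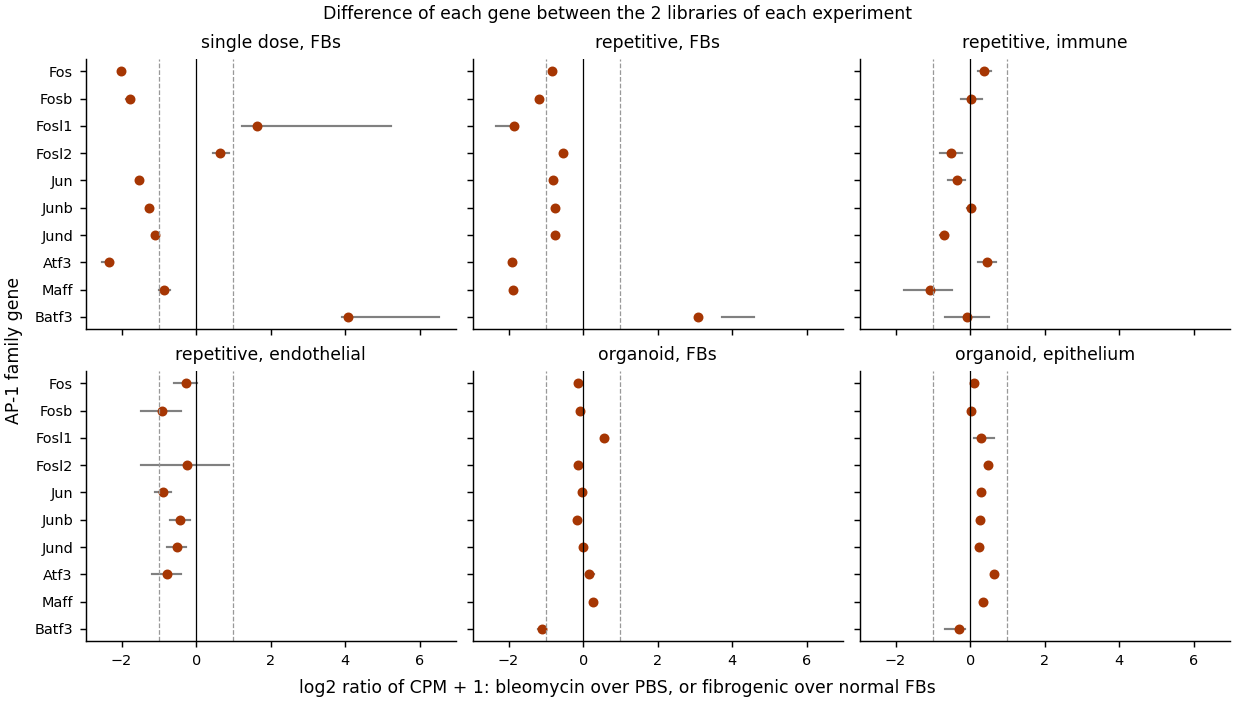
Log2 ratio of each member (CPM plus 1) between the libraries of each pair, with 95% counting intervals computed without the added 1 and dotted lines at 2-fold. Fos, Fosb, the 3 Jun genes, Atf3 and Maff lay below 0 in both lung FB pairs and Batf3 above 0, at 4.08 and 3.08; for rare genes such as Batf3 the point can lie outside its interval because of the added 1.

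The share of FB barcodes with at least 1 UMI of a member was also taken, after every barcode had been thinned to 1000 UMIs. Like the summed levels, this share does not tell fewer transcribing cells from less RNA in each, since either lowers it. Fos was seen in 64.2% and 40.05% of the single-dose FBs and in 59.6% and 50.9% of the repetitive FBs, PBS first. Jun was seen in 54.5% and 36.5%, then in 59.3% and 52.4%. Jund was seen in 66.5% and 49.3%, then in 68.1% and 56.0%. These shares were lower after bleomycin in both pairs without overlap of their intervals. Junb was seen in 58.1% (54.9 to 61.3) and 47.3% (43.9 to 50.7), then in 56.4% (55.1 to 57.7) and 51.9% (50.8 to 53.0). With thinning to 3000 UMIs, which left out shallower barcodes and kept 816, 795, 5252 and 4419 of the lung FBs, the shares of Junb were 76.2% (73.2 to 79.1) and 71.4% (68.2 to 74.6), then 69.7% (68.4 to 70.9) and 69.0% (67.6 to 70.4). Those Junb intervals overlapped, whereas those of Fos at 3000 UMIs (80.3% and 57.5%, then 70.8% and 58.6%) stayed apart. Overlap alone does not show that the shares were alike. In the same thinned barcodes the mean of Junb was 5.97 and 2.74 UMIs, then 5.87 and 3.53 UMIs. Barcodes with 3 or more Junb UMIs made up 58.1% and 37.6%, then 54.5% and 41.7%.

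Atf3 was seen in 16.4% and 4.74% of single-dose FBs and in 37.5% and 15.1% of repetitive FBs at 1000 UMIs. At 3000 UMIs the shares were 32.7% and 11.1%, then 54.1% and 24.0%. Atf3 was thus detected in a smaller share of FBs after bleomycin at both depths. The share of barcodes with 3 or more Atf3 UMIs was 11.3% and 2.01%, then 33.1% and 8.19%, at 3000 UMIs. The 10% of barcodes richest in Atf3 held 59.4% and 94.9% of its UMIs in the single-dose pair and 45.7% and 72.3% in the repetitive pair. That measure rises as fewer barcodes hold a UMI (11.1% in single bleomycin FBs), so it cannot show concentration beyond those shares. Batf3 was seen in 0.109% and 2.37%, then in 0.110% and 1.26% of FBs at 1000 UMIs, and in 0.545% and 18.5%, then in 0.717% and 7.05%, without thinning. Most FBs of the bleomycin lungs therefore gave no Batf3 UMI at these depths. Lymphocytes, in which Batf3 transcripts are not expected to be abundant, were counted beside FBs in the repetitive bleomycin library. The 76 B cells (median 3586 UMIs) gave 0 Batf3 UMIs, which allows a share of up to 4.74%, against 7.05% of FBs (median 3690 UMIs). Of the 58 T cells (median 4521 UMIs), 1 held all 6 Batf3 UMIs of its class (1.72%, 0.04 to 9.24). That interval holds the FB share, and the T cell level of 19.1 CPM (7.0 to 41.5) was not below the 14.3 CPM of FBs. These few lymphocytes therefore set no background, and how much FB Batf3 came from RNA of other cells was not tested. Fosl2 was seen in 3.60% (2.49 to 5.02) and 6.64% (5.05 to 8.53), then in 8.75% (8.02 to 9.54) and 7.47% (6.90 to 8.07) at 1000 UMIs, the repetitive intervals touching. At 3000 UMIs the Fosl2 shares were 10.5% and 16.98%, then 21.6% and 17.4%, with both pairs of intervals apart.

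The number of members seen per FB was lower after bleomycin. At least 6 of the 10 were seen in 33.3% of single PBS and 13.7% of single bleomycin FBs, and in 50.2% of repetitive PBS and 23.9% of repetitive bleomycin FBs, all at 3000 UMIs. The median number of members seen was 5 and 3 in the single-dose pair and 6 and 4 in the repetitive pair, against 2 in both organoids. Several members were higher in the FBs rich in Atf3. In repetitive PBS the 1740 FBs with 3 or more Atf3 UMIs held a mean of 13.2 Fos UMIs, and the 2409 FBs with none held 2.42. In repetitive bleomycin 362 such FBs held 14.1 Fos UMIs and 3358 without Atf3 held 2.27. Jun followed in the same way (11.6 and 2.23 UMIs in PBS, 10.6 and 2.31 UMIs in bleomycin), whereas Batf3 gave too few UMIs to compare. FBs rich in Atf3 were thus rich in Fos and Jun in both libraries. A smaller share of FBs held 3 or more Atf3 UMIs after bleomycin, and the mean of Atf3 fell from 2.48 to 0.632 UMIs. Fewer such cells and less Atf3 RNA in each cannot be told apart here.

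**Figure D3:**
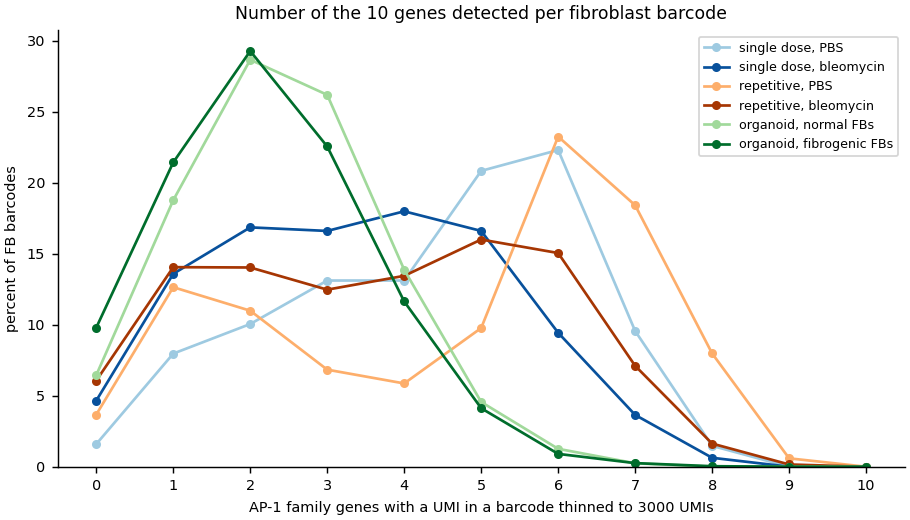
Number of the 10 members with at least 1 UMI in each FB barcode after thinning to 3000 UMIs, as a share of the FB barcodes of each library in percent. The PBS lungs have the largest shares at 6 or more members, 33.3% and 50.2% of FBs, and the organoids lie at the left, with 1.503% and 1.19%.

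FBs were also divided by marker genes into LipoFBs, MatrixFBs and MyoFBs, which are lipid-storing, matrix-producing and contractile states. LipoFBs numbered 490, 131, 3425 and 1116 and MatrixFBs 126, 172, 778 and 2373 in the 4 lung libraries, so that the 2 states also changed their shares. In single PBS the levels of Fosb, Fosl2 and Atf3 were higher in MatrixFBs than in LipoFBs, by log2 ratios of 1.03, 1.15 and 1.02. In single bleomycin Atf3 stood at 28.9 CPM in LipoFBs and 129 CPM in MatrixFBs, a log2 ratio of 2.12. In repetitive PBS Atf3 was nearly level between them, at 868 and 879 CPM, and after repetitive bleomycin the ratio was 0.75. MatrixFBs thus had the higher Atf3 level in 3 of the 4 lung libraries.

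Fos and Atf3 were lower after bleomycin inside LipoFBs and inside MatrixFBs in both models. Within LipoFBs the log2 ratios to PBS were −2.29 for Fos and −2.90 for Atf3 after the single dose, and −1.07 and −2.497 after the repetitive doses. Within MatrixFBs they were −1.49 and −1.80, then −1.24 and −1.76. Batf3 gave 1 and 8 UMIs in single-dose LipoFBs, too few to count, and its ratio was 2.504 in repetitive LipoFBs and 3.03 and 1.80 in MatrixFBs. Within LipoFBs 6 members were at least 2-fold lower and 0 higher after the single dose (3.66% and 5.65% of all genes), and 7 were lower and 1 higher after the repetitive doses (1.84% and 5.12% of all genes). Within MatrixFBs the counts were 6 and 1 (3.89% and 5.29% of all genes), then 8 and 1 (1.71% and 3.03% of all genes). Fosl2 stood at 29.6 and 35.8 CPM in single-dose LipoFBs (0.26) and at 66.9 and 70.5 CPM in single-dose MatrixFBs (0.07), with overlapping intervals in both, and its repetitive ratios were −0.76 and −1.02. MyoFBs were too few after PBS to be compared in this way, and 1092 of 5437 to 2463 of 8019 lung FBs lay within 0.1, in mean z of the marker genes, of a cut between states.

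MyoFBs, with 227 and 1344 barcodes after bleomycin and only 6 and 21 after PBS, were compared with LipoFBs of the same bleomycin lungs. Batf3 stood at 43.3 CPM in MyoFBs and 5.50 CPM in LipoFBs of the single bleomycin lung, and at 21.6 and 6.33 CPM in the repetitive bleomycin lung. Fosl2 stood at 76.3 and 35.8 CPM, then at 107 and 59.2 CPM. Fosl1 stood at 5.17 and 0.688 CPM, then at 5.92 and 1.31 CPM. The single-dose LipoFB values of Batf3 and Fosl1 rest on 8 UMIs and 1 UMI. Maff stood at 70.9 and 48.8 CPM, then at 62.5 and 41.5 CPM, and Junb at 744 and 635 CPM, then at 1375 and 991 CPM. Batf3, Fosl2, Maff, Junb and Jund were higher in MyoFBs than in LipoFBs with intervals apart in both lungs, and Fosl1 in the repetitive one. Other FBs were not all lower than MyoFBs. Jund stood at 1551 CPM in MatrixFBs and 633 CPM in MyoFBs of the single bleomycin lung. Fosl2 intervals of these states overlapped there, but not in the repetitive lung (65.8 and 107 CPM). Batf3 was lower in MatrixFBs (26.1 and 10.4 CPM), while FBs of no state (34.8 and 17.4 CPM) overlapped MyoFBs in both lungs. Fos (477 and 499 CPM, then 1318 and 1140 CPM), Jun (410 and 370 CPM, then 1127 and 1085 CPM) and Atf3 (22.1 and 28.9 CPM, then 187 and 153 CPM) had overlapping intervals after the single dose and were higher in MyoFBs after the repetitive doses. Fosb (91.3 and 75.0 CPM, then 332 and 346 CPM) had overlapping intervals in both lungs.

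**Figure D4:**
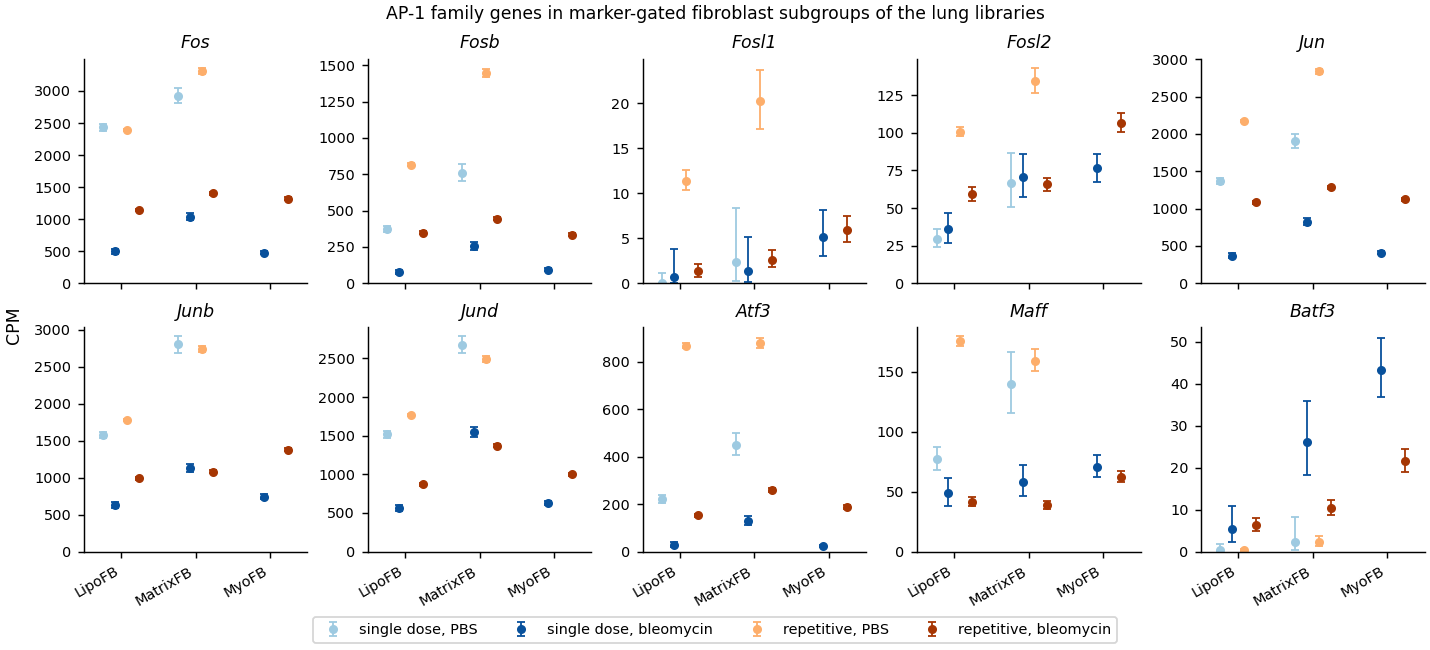
Level of the members in LipoFBs, MatrixFBs and MyoFBs of the lung libraries, in CPM on a linear axis, with exact 95% Poisson intervals. After bleomycin Batf3 is highest in MyoFBs among the states shown, at 43.3 and 21.6 CPM.

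Sorted lung cells also held a few immune and endothelial barcodes, which went through the same digestion and serve as a check on handling. In the repetitive pair 217 and 259 immune barcodes gave Fos at 316 CPM (286 to 347) and 411 CPM (383 to 440), and Atf3 at 159 and 217 CPM. Jun stood at 228 and 176 CPM. Fos and Atf3 were thus higher, and Jun lower, in immune barcodes after bleomycin, with log2 ratios of 0.38, 0.44 and −0.37. Of 9 members with enough UMIs only Maff was at least 2-fold lower (−1.08), where 6.22% of 9879 genes were that much lower and 4.23% that much higher. The immune cell types were not alike. The log2 ratio of Fos was −0.95 in T cells (80 and 58 barcodes, 29 and 11 UMIs) and −0.86 in B cells (44 and 76 barcodes, 32 and 34 UMIs), with overlapping intervals in both. Fos was higher in macrophages (51 and 78 barcodes, 449 and 610 CPM) and in neutrophils (32 and 18 barcodes, 844 and 2219 CPM), without overlap. The shares of barcodes with a Fos UMI at 1000 UMIs had overlapping intervals. They were 31.4% (19.1 to 45.9) and 39.7% (28.8 to 51.5) in macrophages, and 59.4% (40.6 to 76.3) and 66.7% (41.0 to 86.7) in neutrophils. Neutrophils, and B cells after PBS, were under the limit of 50 barcodes set for groups. In T cells 0 of 6 members with enough UMIs were 2-fold lower and 1, Fosb, was higher (11.2% and 5.93% of all genes), and in B cells 0 of 4 were lower or higher (3.67% and 7.14% of all genes). In all immune barcodes Fosb (0.03), Junb (0.02) and Batf3 (−0.08) were near 0, and Fosl2 (−0.51) and Jund (−0.70) below it. The median log2 ratio of all genes was −0.125 there. FB markers summed to 281 and 1016 CPM in these immune barcodes, against 9761 and 22719 CPM in FBs, so that the FB RNA found among immune cells also differed between the libraries and its part in these values was not tested.

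Endothelial barcodes, 53 in repetitive PBS and 28 in repetitive bleomycin, which is under the limit of 50 set for groups, gave Jun at 2196 and 1178 CPM and Atf3 at 664 and 386 CPM. The Atf3 level after bleomycin came from only 4 of the 28 barcodes, against 36 of the 53 in PBS, without thinning. At 1000 UMIs the Atf3 shares were 34.0% (21.5 to 48.3) and 14.3% (4.03 to 32.7). All 7 members with enough UMIs were below 0 (−0.93 for Fosb to −0.25 for Fosl2), and 0 were 2-fold lower or higher, where 7.32% and 4.28% of genes were. The median log2 ratio of all genes in endothelial barcodes was −0.022, and the intervals of Fos and of Fosl2 overlapped. In the single-dose pair 39 and 47 immune barcodes, also under that limit, gave Fos at 941 and 525 CPM and Atf3 at 266 and 61.1 CPM. All 8 members with enough UMIs were lower there, 5 of them at least 2-fold, and 0 were higher, where 8.44% of genes were 2-fold lower and 6.08% higher. The median log2 ratio of all genes was −0.002, and the intervals of Fosl2 and of Batf3 overlapped. FB markers summed to 1418 and 2721 CPM in these immune barcodes. The decrease of Fos, Jun and Atf3 in FBs was therefore accompanied by lower values in the few immune barcodes of the same single-dose libraries. In the repetitive libraries endothelial values were lower too, while Fos and Atf3 were higher over all immune barcodes. How far handling, rather than bleomycin, set these levels was not tested, and with 1 library a condition the effects of preparation and treatment cannot be told apart.

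Genes that share regulation with the members by common knowledge were counted from lists, to be read against the shares of all genes that were 2-fold lower or higher (3.64% and 9.01% in the single-dose FBs, 1.63% and 6.03% in the repetitive FBs). Of 20 other immediate-early genes, 12 were at least 2-fold lower and 1 was higher in the single bleomycin FBs, with a median log2 ratio of −1.10. The lowest was Gadd45b (−1.64), a stress sensor, and the highest Myc (1.61), a growth regulator. In the repetitive FBs 8 of 20 were lower, with a median of −0.92, from Nr4a1 (−1.54), a nuclear receptor, to Socs3 (0.07), a brake on cytokine signalling. The median of the immediate-early genes was thus below 0 in both models, against medians of all genes of 0.085 and 0.097. Heat shock chaperones, which digestion also induces, were 2-fold lower in 3 of 10 (Hspa1a −2.21 to Hspe1 0.32) and in 1 of 10 (Hspb1 −1.32 to Hspa1b 0.66).

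Other zipper proteins that can pair with AP-1 were 2-fold lower in 1 of 18 after the single dose (Atf5 −1.23 to Bach1 0.50) and in 2 of 20 after repetitive doses (Atf5 −1.09 to Batf2 0.61). Among 17 kinases and serum response factors upstream of AP-1, only Elk3, a cofactor of serum response factor, was past 2-fold in the single-dose pair, at 9.13 and 43.2 CPM (log2 ratio 2.13, the lowest being Map3k1 at −0.79). It was also the highest in the repetitive pair (2.32, the lowest being Srf at −0.40). Among genes known as AP-1 targets the medians were above 0. After the single dose 10 of 16 were at least 2-fold higher, with a median of 1.42, from Dusp6 (−0.48) to the matrix protein gene Spp1 (11.03). After the repetitive doses 5 of 18 were, with a median of 0.63, from Vegfa (−0.65) to Spp1 (9.09).

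In organoids the AP-1 genes took a far smaller share of FB RNA than in the lung, and the origin of the FBs made little difference to most members. Fos counted 250 CPM (247 to 253) with normal and 229 CPM (226 to 231) with fibrogenic FBs, Jun 86.3 and 85.0 CPM, and Jund 286 and 288 CPM. Junb was the most abundant member there, at 592 and 526 CPM. Fosb (57.1 and 54.1 CPM), Fosl2 (70.2 and 63.9 CPM), Atf3 (11.3 and 12.8 CPM) and Maff (29.96 and 36.5 CPM) had log2 ratios between −0.13 and 0.28. Jun and Jund thus had overlapping intervals. Fos, Fosb, the 3 Jun genes, Atf3 and Maff were below their levels in all 4 lung libraries, whereas Fosl2 lay within its lung range of 41.6 to 119 CPM.

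Batf3 and Fosl1 stood apart in organoid FBs. Batf3 was at 46.1 CPM (44.9 to 47.4) in normal and 20.9 CPM (20.2 to 21.6) in fibrogenic FBs, a log2 ratio of −1.11, and was the only member past 2-fold, where 0.716% of 17871 genes were that much lower and 0.252% that much higher. The ratio was −0.86 with a pseudocount of 10 and −0.79 over all barcodes of the organoids, short of 2-fold. Fosl1 was at 13.9 and 20.8 CPM, a ratio of 0.55. Among the 11 whole cell classes of 50 or more barcodes, Batf3 was highest in normal organoid FBs and Fosl1 in fibrogenic organoid FBs. Smaller groups held more Batf3, among them the 39 immune barcodes of single PBS (106 CPM, 66.9 to 158), whose interval lay above that of the organoid FBs. The lists moved little: the extremes were Nr4a2 (−0.56) and Klf4 (0.58) for immediate-early genes, Hspa1a (0.03) and Hspb1 (0.60) for chaperones, Map3k5 (−0.77) and Map2k1 (0.14) upstream, and Spp1 (−0.61) and Mmp13 (0.76) among targets.

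Epithelial barcodes of the organoids, 1922 with normal and 1760 with fibrogenic FBs, carried surfactant gene Sftpc at 67314 and 61440 CPM. Atf3 counted 155 CPM (152 to 158) with normal and 243 CPM (239 to 247) with fibrogenic FBs, a log2 ratio of 0.65. Jun counted 337 and 412 CPM (0.29), Fos 374 and 403 CPM (0.11), Junb 499 and 594 CPM (0.25) and Jund 566 and 663 CPM (0.23). Each of these 5 was higher with fibrogenic FBs beyond counting error in the whole epithelium, and 9 of 10 members had a ratio above 0. Of those 9, Fosb and Fosl1 had overlapping intervals. Fosl2 stood at 27.5 and 38.4 CPM (0.47), Maff at 24.5 and 31.6 CPM (0.35), Fosb at 83.6 and 85.2 CPM, Fosl1 at 2.85 and 3.69 CPM, and Batf3, the exception, at 3.86 and 2.91 CPM (−0.31). None of the 10 reached 2-fold, as was so for all but 0.204% (lower) and 0.126% (higher) of 16701 genes, although Batf3 was at −1.60 under a stricter gate, and the median ratio of all genes was 0.031 there and −0.012 in organoid FBs.

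Immediate-early genes other than AP-1 ranged from Nr4a3 (−0.06) to Dusp1 (0.70) in this epithelium, with 0 of 20 past 2-fold. The other lists ranged from Hspd1 (0.04) to Hspb1 (0.54) for chaperones, from Map2k1 (−0.12) to Elk4 (0.25) upstream and from Spp1 (−0.92) to Ptgs2 (0.96) among targets. Within an organoid, where all cells were dissociated together, some members differed widely between epithelium and FBs and others did not. Atf3 was at 155 CPM in the epithelium and 11.3 CPM in the FBs of the normal organoids, a log2 ratio of FBs to epithelium of −3.66, and Jun at 337 and 86.3 CPM (−1.95). Batf3 had the opposite pattern (3.28). Junb (499 and 592 CPM), Maff (24.5 and 29.96 CPM) and Fosb (83.6 and 57.1 CPM) were closer.

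By marker genes the epithelium was split into AEC2, AEC1 (flat gas-exchange cells) and PATS, a transitional state between them (985, 251 and 230 barcodes with normal and 703, 260 and 393 with fibrogenic FBs). Atf3 stood at 141 CPM in AEC2 and 334 CPM in PATS of the normal organoids, and at 173 and 528 CPM in the fibrogenic ones, ratios of 1.24 and 1.60. Fosl1 stood at 1.87 and 10.0 CPM, then at 1.57 and 11.8 CPM. Fosl2 stood at 19.4 and 66.1 CPM, then at 26.4 and 74.0 CPM. PATS were above AEC2 for all 3 genes with both kinds of FB, as they were for Maff (19.5 and 56.8 CPM, then 21.1 and 67.2 CPM) and Jund (502 and 823 CPM, then 528 and 928 CPM). Within single states, fibrogenic over normal gave 0.66 for Atf3 in PATS, 0.30 in AEC2 and 0.16 in AEC1. Atf3 was also higher with fibrogenic FBs in cycling epithelium (115 and 147 CPM), with intervals apart. The widest Atf3 ratio was in epithelium of no state, at 135 CPM (125 to 146) and 315 CPM (301 to 330). For Fos it gave 0.46 in PATS (310 and 429 CPM), −0.04 in AEC2 (391 and 380 CPM) and −0.11 in AEC1 (425 and 395 CPM). Fos was also higher with fibrogenic FBs in cycling epithelium (319 and 343 CPM) and in epithelium of no state (459.7 and 564 CPM), with intervals apart in both. PATS were 230 of 1922 normal and 393 of 1760 fibrogenic epithelial barcodes. In AEC1 Jund stood at 812 and 819 CPM. Batf3 was higher in AEC1 than in PATS with normal FBs (11.8 and 2.94 CPM), and the intervals overlapped with fibrogenic FBs (6.11 and 5.14 CPM). The 103 Batf3 UMIs of AEC1 with normal FBs lay in 31 of 251 barcodes. FBs of that organoid held Batf3 at 46.1 CPM, and the part of FB RNA in the AEC1 value was not tested.

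**Figure D5:**
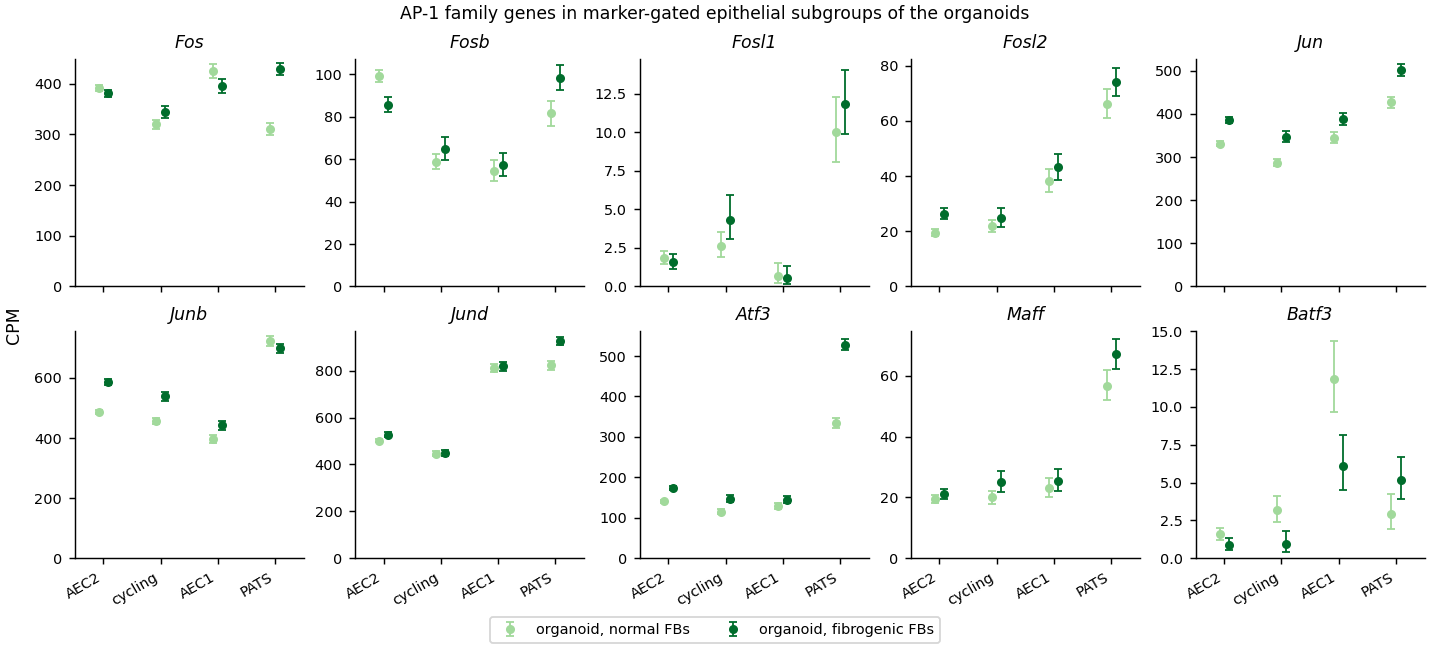
Level of the members in AEC2, cycling, AEC1 and PATS barcodes of the organoids, in CPM on a linear axis, with exact 95% Poisson intervals. Atf3, Fosl1, Fosl2 and Maff are higher in PATS than in AEC2 with both kinds of FB, Atf3 reaching 334 and 528 CPM.

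Across the 11 whole classes of at least 50 barcodes, Fos was highest in the FBs of both PBS lungs, whose intervals overlapped, then in repetitive bleomycin FBs and in repetitive PBS endothelium (820 CPM), and lowest in both organoid FBs. Jun was highest in repetitive PBS FBs and repetitive PBS endothelium, which overlapped, and Atf3 in the same pair, which did not (867 and 664 CPM). Batf3 followed another order, with normal organoid FBs first, then single bleomycin FBs and both repetitive immune groups (32.5, 32.3 and 30.5 CPM, all overlapping), and with both PBS FBs (under 1 CPM) and repetitive PBS endothelium (0 UMIs) at the bottom. The genes whose levels followed a member most closely over these groups, by Pearson's r of log2 levels, were Tns1 (0.962), Faim2 (0.958) and Tecrl (0.954) for Fos, Pdzd2 (0.981), Kank3 (0.957) and Ier2 (0.955) for Jun, and Klf6 (0.983), Rdm1 (0.952) and Hsd17b11 (0.918) for Atf3. Junb was followed by Btg2 (0.960) and Dusp1 (0.942), Jund by Thap3 (0.952), Ppp1cb (0.952) and Dusp1 (0.946), and Fosb by Ppp1cb (0.968), Reps2 and Thap3 (0.954). Fosl2 was followed by Tbc1d1 (0.957), Dennd4a (0.921) and Trps1 (0.910) and Maff by Kcna2 (0.938), Tubb4a (0.933) and Fbxo30 (0.927), while Fosl1 and Batf3 stayed under the 50 CPM needed. These are descriptions over groups that share libraries and were searched among 6262 genes.

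The genes lie on separate stretches of the genome in the GRCm38 annotation, and all are protein coding. Fos spans chr12:85473890-85477273, Fosb chr7:19302696-19310051, Fosl1 chr19:5447547-5455946 and Fosl2 chr5:32135801-32157842. Jun, Junb and Jund, each of 1 exon, span chr4:95049034-95052222, chr8:84974484-84978718 and chr8:70698949-70700616. Maff spans chr15:79346621-79359076. Atf3 at chr1:191170296-191218039 and Batf3 at chr1:191097847-191108945 are close neighbours on opposite strands, yet Atf3 was lower and Batf3 higher after bleomycin in both models. Genes on the opposite strand overlap Fosl1 (Ccdc85b), Jun (Junos), Junb (Prdx2), Jund (Gm11175) and Atf3 (Gm24748).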

How the data were processed

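The 6 droplet libraries were analysed, with 1 for each condition. The deposited values are raw UMI counts per gene and barcode, which the authors made with Cell Ranger (3.0.1) on mm10 and examined in Seurat (3), per the submitters' notes; all count columns were used (0 left out). Barcodes with at least 1000 UMIs and at most 25% mitochondrial UMIs were classed by marker genes (50% of a class's markers present, with a lead of 0.2 over the next class), thresholds being set after marker distributions were seen. No doublet caller was run. The lead leaves out barcodes with comparable shares of the markers of 2 classes, but keeps those with a few markers of another class. A stricter gate was an alternative. FB and epithelial states needed a mean z of 0.3 and a lead of 0.2.

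UMIs were summed over barcodes into CPM with exact 95% Poisson intervals, shares of barcodes carry Clopper-Pearson intervals, and ratio intervals come from the exact binomial distribution. Ratios are log2(CPM + 1), which understates the change of rare genes. A gene was counted as past the fold at 2-fold with 20 or more UMIs over both groups. As UMIs of 1 library are not replicates, intervals cover counting error and no p-value is given. Thinning was to 1000 UMIs, with 3000 as an alternative. Python 3.11.15, numpy 2.4.6, scipy 1.17.1, pandas 2.3.3 and matplotlib 3.10.9 were used, and the scripts were tested on simulated data. Likeness needed 50 CPM in a group. All 10 members were named, with the highest and lowest gene of each list and the 3 genes most like each member, apart from a few results that are not reported here. The members and lists were chosen with earlier results of these data known. Alternatives were pseudocount 10, a minimum of 3000 or 10000 UMIs, other gates, centring on all genes, the mean of barcodes' CPM and single cell states. Promoter sequences are those of RefSeq (GRCm38.p6), and coordinates come from GENCODE on GRCm38.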

Additional observations from a re-analysis of the deposited data

Results flagged for a closer look

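Fosl1 and Fosl2 lay on opposite sides of 0 in the FBs of the 2 bleomycin models. The log2 ratio of bleomycin to PBS was 1.64 for Fosl1 after the single dose and −1.85 after the repetitive doses, and for Fosl2 it was 0.65 and −0.53. Within single-dose LipoFBs and MatrixFBs the Fosl2 ratios were 0.26 and 0.07, with overlapping intervals. With 1 library a condition the difference between the models was not tested, and the repetitive PBS library held the highest lung FB level of both genes (15.03 and 119 CPM).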

How the results depend on the processing

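No paired analysis was possible because each condition had 1 library. Counting members with 20 or more UMIs, 0 of 126 alternative ratios had the other sign in single-dose FBs, 0 of 130 in repetitive FBs, 11 of 100 in organoid epithelium, 5 of 100 in organoid FBs, 9 of 82 in repetitive immune and 0 of 49 in endothelial barcodes. The 2 higher members of the single-dose pair became 1 with a pseudocount of 10, within MatrixFBs and in barcodes with no immune marker, and 0 within LipoFBs, where fewer members had 20 UMIs. The 4 lower members of the repetitive pair became 7 within LipoFBs and 8 within MatrixFBs. Of 65 alternative ratios for the members past 2-fold in that pair, 1 was no longer past it. Lower members went from 0 to 1 in organoid epithelium under a stricter gate (Batf3, −1.60), and from 1 to 0 in organoid FBs with a pseudocount of 10 or with all barcodes. In immune barcodes the 1 lower member became 0 when centred on the median gene, with a pseudocount of 10, in T cells and in B cells, and 2 under a stricter gate, and the 0 higher members became 1 in T cells. In endothelial barcodes the 0 lower members became 2 by the mean of barcodes' CPM. Apart from the LipoFB count, the cause was not tested. The MatrixFB, immune cell type, 10000-UMI and no-immune-marker settings were chosen after seeing the data. The stricter gate left under 15 endothelial barcodes in a library and was not run. Depth limits Fosl1 and Batf3 most, with 3 and 6 UMIs in the single PBS FBs.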

Other observations

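Among immune barcodes of the repetitive pair, macrophages held Atf3 at 252 CPM with PBS and 378 CPM with bleomycin. Neutrophils (32 and 18 barcodes) held Junb at 2128 and 4177 CPM. Other genes of the lists ranged in immune barcodes from Ccn1 (log2 ratio −1.79) to Socs3 (0.81) for immediate-early genes, from Hspb1 (−1.62) to Hspa1a (1.62) for chaperones, from Mapk8 (−0.82) to Map2k1 (0.30) upstream and from Plaur (−0.76) to Spp1 (6.23) among targets. In endothelial barcodes the ranges ran from Klf6 (−1.33) to Ier5 (0.70), from Hspa1a (−1.66) to Hsp90aa1 (0.47), from Map3k5 (−1.20) to Mrtfa (1.85) and from Spp1 (−1.77) to Dusp6 (0.88) in the same order of lists, and zipper partners ran from Mafk (−1.03) to Maf (1.95).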
